A study of Mus musculus with 13 samples.

Results

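Melanocytes make melanin inside melanosomes, and the genes described here are those that define this program. They were Mitf, Sox10, Tyr, Tyrp1, Dct, Pmel, Mlana, Slc45a2, Oca2 and Gpr143, 10 of the 54532 genes of the count table, found through their Ensembl identifiers in the GENCODE annotation of the mouse genome build GRCm38. They were chosen by function, with earlier results of these data known. They were measured in YUMM1.7, a mouse melanoma cell line, so every group was the same line. Cells received the vehicle DMSO, the ADAR1 inhibitor ADAR1i-124 at 10 µM for 12 h, the DNA methyltransferase inhibitor 5-Aza-CdR at 1 µM for 72 h, or 5-Aza-CdR followed by ADAR1i-124 (the combination). The sample labels give no dose for the precipitates of the combination, and the doses above are those the study describes when it compares the combination with 5-Aza-CdR. Total RNA was sequenced after ribosomal RNA removal, and RNA precipitated with J2, an antibody against double-stranded RNA, or with Z22, an antibody against Z-form nucleic acid, was sequenced after treatment with RNase I and DNase. An IgG precipitate served as the control, and the treatment of the cells behind it was not given in the sources used here.

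The 12 libraries described were 3 of total RNA, 4 of J2, 4 of Z22 and 1 of IgG, and each condition was 1 library. No comparison between conditions therefore had a replicate, no p-value is given, and every interval printed covers counting error only. The total RNA library of the combination was left out because its counts followed the opposite strand. Library totals ran from 8167960 to 34571822 counts. A gene with no count could still have had a true level of up to 3 counts, which is 0.0868 to 0.367 counts per 1000000 (CPM) depending on the library. The Z22 library of DMSO-treated cells stood apart, with 46.8% of its counts in its 20 highest genes against 7.36% to 31.6% in the other 11 libraries.

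The program runs from regulators to pigment. SOX10, a transcription factor of the neural crest, activates Mitf, and MITF, a basic helix-loop-helix leucine zipper factor, binds short E-box and M-box elements before the genes for the pigment enzymes. Tyrosinase (Tyr) carries out the rate-limiting step of melanin synthesis, and Tyrp1 and Dct are its related enzymes. Pmel forms the fibrils on which melanin is laid down, Mlana is a melanosome protein that works with Pmel, Slc45a2 and Oca2 are melanosome transport proteins that set its pH, and Gpr143 is a receptor of the melanosome membrane.

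The M-box is the shared feature of the enzyme genes that the choice of genes did not use, and it is shown because the levels of its carriers against that of Mitf are the main contrast below. RefSeq promoters (GRCm38.p6, 250 bases before to 50 after an annotated start) were at hand for 5 of the 10 genes, Mitf with 3 starts and Tyr, Tyrp1, Dct and Oca2 with 1 each. The M-box core TCATGTGCT, searched on both strands, was present before Tyr, Tyrp1 and Dct, at 22, 47 and 151 bases before the start, and was absent from the windows of Oca2 and Mitf. The core was found in 0.408% of all 32851 RefSeq promoters of this length. Its inner E-box CATGTG was in 14.2% of them, and the palindromic E-box CACGTG, which none of the 7 windows held, in 7.15%. Written 5′ to 3′ on the gene's own strand with the M-box core in capitals, the sites were as follows.
Tyr, chr7:87493516-87493544, minus strand: aaaaagttagTCATGTGCTttgcagaaga
Tyrp1, chr4:80834156-80834184, plus strand: ggggagggagTCATGTGCTgcctagtagt
Dct, chr14:118052379-118052407, minus strand: gcacttagggTCATGTGCTaacaaagagg
The third Mitf start, at chr6 position 97991783, had a cyclic AMP response element (TGACGTCA, in 1.79% of promoters) 153 bases before it, with the element in capitals below.
Mitf, chr6:97991620-97991647, plus strand: aaaaaaagcaTGACGTCAagccagcagg
The windows also differed in CpG content, the dinucleotide at which DNA methylation occurs and on which 5-Aza-CdR acts. The Tyr window held 0 CpG, Oca2 2, Tyrp1 3 and Dct 5, and the 3 Mitf windows 22, 5 and 8, against a median of 7 (quartiles 3 and 20) over all promoters. Methylation was not measured in these libraries.

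The cells transcribed Mitf and almost nothing else of the set. Mitf (ENSMUSG00000035158, chromosome 6, 97807052 to 98021349, plus strand) had between 96 and 1145 counts in every library. It was the only member with a level of at least 1 CPM in any of the 12 libraries. In bulk libraries such as these, fewer cells with a transcript and less of it per cell cannot be told apart. GENCODE lists 7 transcript starts for Mitf, and counts per gene do not show which of them were in use. The mean level of Mitf in total RNA, scaled to exon length, was 15.2 transcripts per 1000000 (TPM), and between 28.1% and 39.8% of the genes with a count in those libraries had a higher TPM. The other 9 members together had 65 counts among 176880453, and between 2 and 20 in a library.

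Pmel (ENSMUSG00000025359, chromosome 10, 128704195 to 128720238) was the only other member with at least 3 counts in a library. In total RNA it had 2 counts with DMSO, 4 with ADAR1i-124 and 15 with 5-Aza-CdR. In J2 it had 3 in DMSO, 9 under ADAR1i-124, 5 under 5-Aza-CdR and 3 under the combination, and in Z22 it had 0, 2, 2 and 2 in that order. The IgG library had 4 Pmel counts, or 0.261 CPM, which lay within the range of the antibody libraries, and the highest Pmel level anywhere was 0.625 CPM. Pmel shares 105 exon bases with Dgka and 34 with Cdk2, which lie on the other strand, and both neighbours had more counts than Pmel in all 12 libraries (at least 39 for Dgka and 65 for Cdk2). The part of these neighbours in the Pmel counts was not tested.

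The pigment enzymes were at or near 0. Tyr and Tyrp1 had no count in any of the 12 libraries, which allows a level of up to 0.0868 CPM in the deepest of them, and Dct had 1 count, in total RNA with 5-Aza-CdR. Of the melanosome proteins, Gpr143 also had no count in any library, Mlana had 1 (J2 with 5-Aza-CdR) and Slc45a2 had 1 (total RNA with 5-Aza-CdR). Oca2 had 6 counts spread over 5 libraries, and no library had more than 2. Sox10, the regulator upstream of Mitf, had 5 counts over 4 libraries, again with at most 2 in one. For these 8 members no difference between conditions was detectable at this depth. The plot of the members by library shows Mitf apart from the rest.

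**Figure D1:**
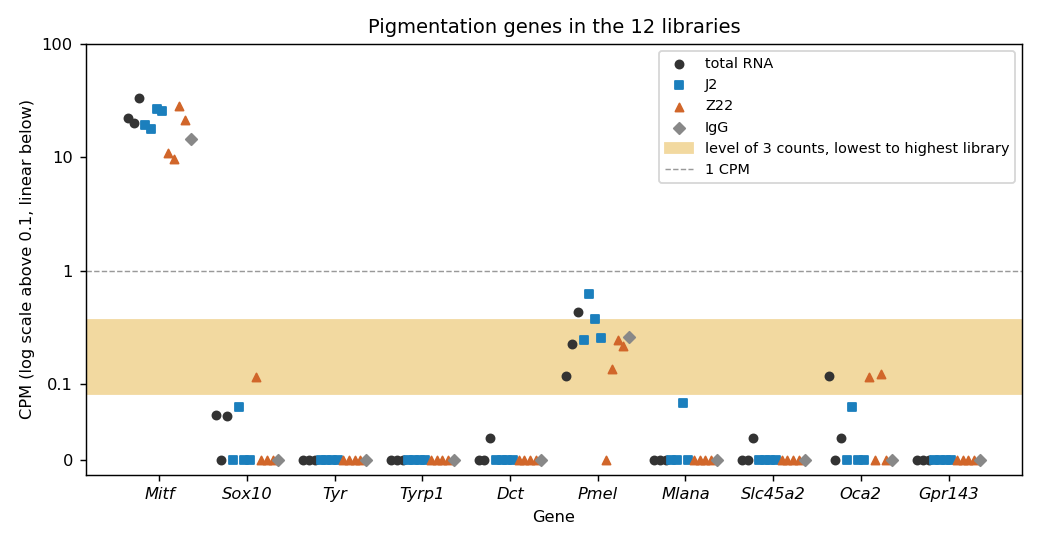
Level of each of the 10 pigmentation genes in the 12 libraries, in CPM (vertical axis, logarithmic above 0.1 and linear below). Each point is 1 library, with its shape and colour giving the RNA type, and the band marks the level of 3 counts (0.0868 to 0.367 CPM). Mitf lies between 9.68 and 33.1 CPM, Pmel between 0 and 0.625, and the other 8 genes at or near 0.

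Within each RNA type, Mitf was highest in the libraries of cells that had received 5-Aza-CdR. In total RNA it had 377 counts (22.2 CPM, 95% Poisson interval 19.98 to 24.5) with DMSO, 357 (20.3 CPM, 18.2 to 22.5) with ADAR1i-124 and 1145 (33.1 CPM, 31.2 to 35.1) with 5-Aza-CdR. In J2 it stood at 19.5 CPM in DMSO, 17.6 under ADAR1i-124, 26.5 under 5-Aza-CdR and 25.5 under the combination, from 237, 254, 352 and 300 counts. In Z22 it stood at 11.0, 9.68, 28.2 and 21.4 CPM in the same order, from 96, 142, 230 and 196 counts. In each of the 3 RNA types the libraries with 5-Aza-CdR thus lay above those without it, by a gap from the lowest with to the highest without of 1.49-fold in total RNA, 1.31-fold in J2 and 1.95-fold in Z22.

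This separation was not rare. Of the 14071 genes that averaged 1 CPM or more in the 11 libraries, 14.3% were separated in the same direction in all 3 types, and 2.18% in the opposite one. With scaling factors from edgeR's trimmed mean of M values (TMM) Mitf was still separated in all 3 types, with gaps of 1.44-fold in total RNA, 1.20-fold in J2 and 1.18-fold in Z22 (1.07-fold in Z22 with DESeq2 size factors), and the shares of genes separated in this and in the opposite direction were 8.44% and 6.35%, so that the excess of higher over lower genes seen with library totals went largely with the scaling. The separation was looked for after the Mitf values had been seen. Without the Z22 library of DMSO-treated cells, the Z22 gap rests on the library with ADAR1i-124 alone (9.68 CPM).

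**Figure D2:**
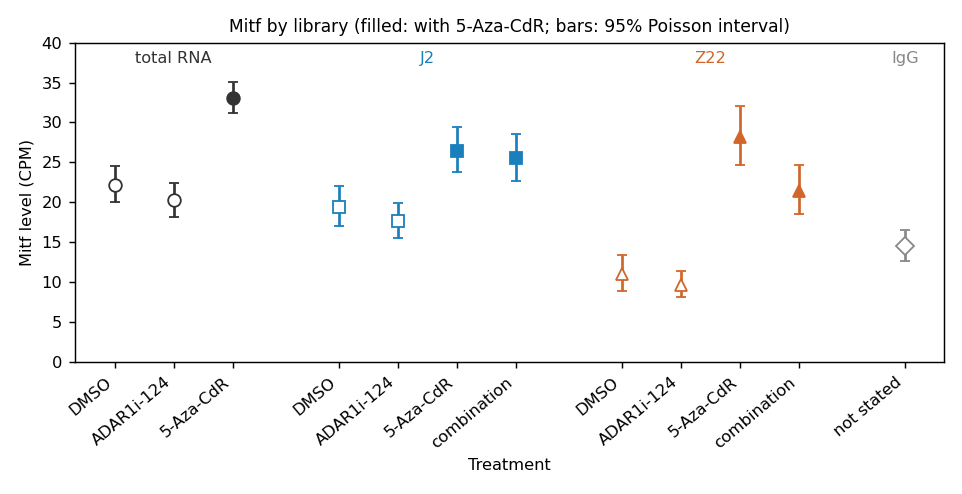
Mitf level in CPM (vertical axis, from 0) in each of the 12 libraries, grouped by RNA type, with exact 95% Poisson intervals as bars and filled symbols for libraries with 5-Aza-CdR. In total RNA, J2 and Z22 every filled symbol lies above every open one.

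Ordered by level, Mitf ran from 33.1 CPM in total RNA with 5-Aza-CdR, through 14.5 CPM in IgG, to 9.68 CPM in Z22 with ADAR1i-124. The Poisson intervals of every pair of neighbours in this order overlapped, so the order of adjacent libraries was not resolved. The libraries of DMSO-treated cells had ranks 5 (total RNA), 8 (J2) and 11 (Z22) of 12.

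Whether each treatment moved the set was asked for each RNA type against DMSO, on the log2(CPM + 0.5) scale, with a gene called at a 4-fold difference if the 2 libraries averaged 1 CPM or more. Mitf alone among the members met that minimum in each of the 14 comparisons, and in none of them was it 4-fold changed. The median log2 change of the 10 members was 0 in all 14, which the genes at 0 fix. In total RNA with ADAR1i-124, Mitf was lower by 0.13 on the log2 scale (interval from −0.34 to 0.080), beside a median of −0.092 over the 13693 genes tested. In that comparison 1.88% of genes were higher and 2.05% lower by 4-fold or more, while at 2-fold the shares were 7.71% and 8.7%. With 5-Aza-CdR, Mitf was higher by 0.57 (0.41 to 0.75), beside a median of 0.060 over 14391 genes. There 5.98% of genes were 4-fold higher and 1.76% lower, and 17.0% and 8.96% at 2-fold.

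The J2 libraries gave Mitf changes of like size. With 5-Aza-CdR the log2 change was 0.43 (0.21 to 0.68) and with the combination 0.38 (0.14 to 0.64), while with ADAR1i-124 it was −0.14 (−0.40 to 0.11). The medians of all genes in the first and second of these were 0.059 and 0.11. The shares of genes 4-fold changed in either direction were 3.99% with 5-Aza-CdR, 3.26% with the combination and 3.53% with ADAR1i-124, and 8.61% of genes were at least 2-fold higher with 5-Aza-CdR. The combination and 5-Aza-CdR alone differed by −0.053 for Mitf, where 0.24% of genes were 4-fold changed.

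In Z22 the whole distribution of genes moved against the DMSO library. Mitf was 1.32 higher on the log2 scale with 5-Aza-CdR (1.01 to 1.70), 0.93 higher with the combination (0.61 to 1.31) and 0.18 lower with ADAR1i-124 (−0.56 to 0.19), but the medians of all genes were 1.06, 0.82 and 0.81. Relative to those medians Mitf differed by 0.26, 0.11 and −0.99. With 5-Aza-CdR 52.1% of all genes were at least 2-fold higher, as Mitf was. The shares 4-fold changed were 20.9%, 15.3% and 14.1%. Z22 with the combination against 5-Aza-CdR alone, which leaves the DMSO library out, gave −0.39 for Mitf (−0.67 to −0.12) beside a median of −0.18, with 1.33% of genes 4-fold changed.

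Whether Mitf RNA was enriched by an antibody was asked in DMSO-treated cells. J2 exceeded IgG by 0.41 on the log2 scale (0.16 to 0.69) where the median of all genes was near 0 and 3.48% were 4-fold changed. Z22 lay 0.38 below IgG (−0.74 to −0.053), but the median of all genes lay at −0.83, with 23.1% of genes 4-fold changed, and under TMM factors the Mitf difference turned to 0.23. Against total RNA, J2 differed by −0.18 (2.37% of genes 4-fold changed) and Z22 by −0.98 (29.8%), beside medians of −0.36 and −1.18. The J2 difference turned to between 0.098 and 0.24 under the other 3 scalings, and the Z22 difference to 0.22 under DESeq2 size factors. The IgG treatment was not given, so these differences from IgG cannot be told apart from one between treatments.

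**Figure D3:**
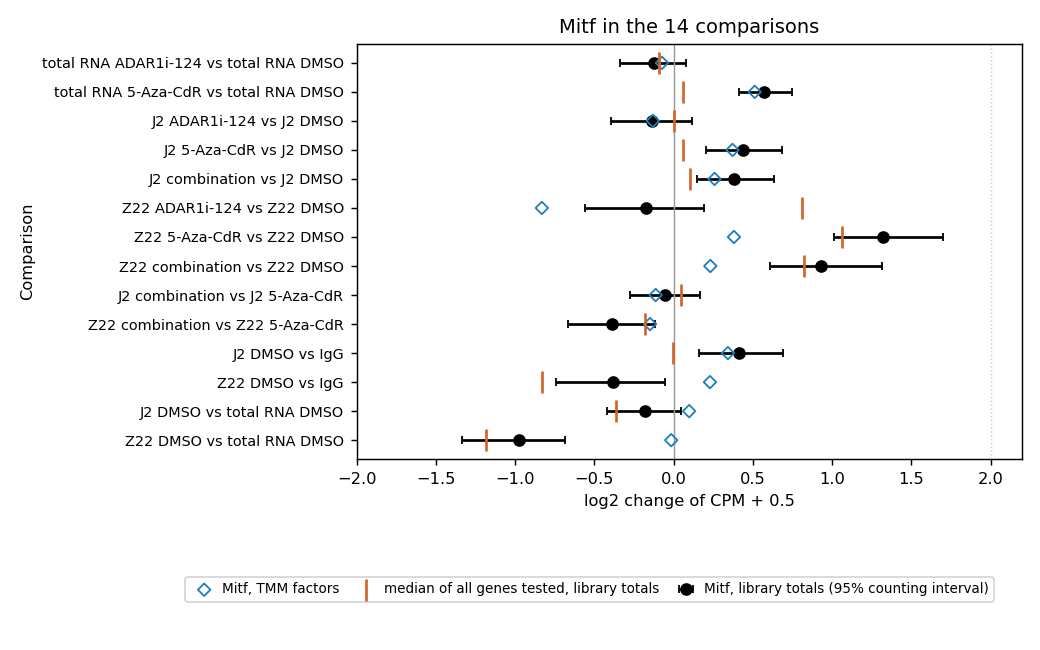
Log2 change of Mitf in the 14 comparisons (horizontal axis, log2 of CPM + 0.5), with filled points and 95% counting intervals for scaling by library totals, open diamonds for TMM factors and a tick for the median of all genes tested. Mitf was 0.57 higher in total RNA with 5-Aza-CdR, and the 2 scalings part most in the comparisons with the Z22 library of DMSO-treated cells.

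For Pmel, the log2 change in total RNA with 5-Aza-CdR was 0.60 on the CPM + 0.5 scale, from 15 counts against 2. Its interval without the pseudocount ran from −0.087 to 3.86 and so held no change. In J2 with ADAR1i-124, from 9 counts against 3, it was 0.59 (−0.43 to 3.12).

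Other lists of genes of the pigment pathway were not silent as a whole. Whether these lists are specific to melanocytes was not tested. Of all 54532 genes counted, 13693 averaged 1 CPM or more over total RNA with DMSO and with ADAR1i-124. Of 16 regulators of the lineage, 12 reached that mean. Among them, and named after its values were seen, Pax3, which activates Mitf, stood at 69.9 to 86.5 CPM in the 3 libraries. Of 23 genes for melanosome biogenesis (the HPS, BLOC-1, AP-3 and related trafficking proteins) 21 reached that mean, against 7 of 13 genes of the melanosome membrane, 5 of 8 of melanosome transport, 4 of the 11 measured genes of pigment signalling and 10 of 14 targets of MITF outside pigmentation. Named after their values were seen, several genes of melanocytes were near 0. Kit, the receptor for stem cell factor, had at most 1 count in a total RNA library, Ednrb, the endothelin receptor, at most 1, Mc1r, the melanocortin receptor, at most 10 and Rab27a, which tethers melanosomes to actin motors, at most 10. Other genes of these lists, chosen likewise and active in many cell types, were abundant, such as the melanosome and lysosome protein Gpnmb at 201 to 313 CPM, Cd63 at 352 to 586 and the motor Myo5a at 236 to 314.

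**Figure D4:**
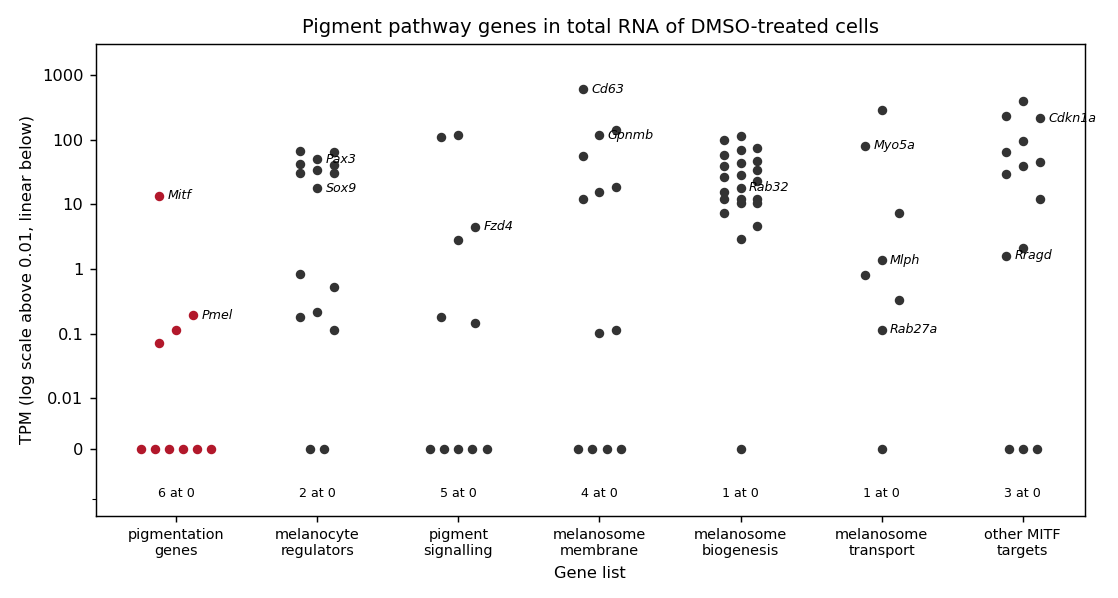
Level of each listed gene in total RNA of DMSO-treated cells, in TPM (vertical axis, logarithmic above 0.01 and linear below), by list, with the number of genes at 0 printed at the foot. Of the 10 pigmentation genes 6 lie at 0 and Mitf lies at 13.5 TPM, while 1 of the 23 biogenesis genes lies at 0.

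Of the 12 regulators tested, 5 were at least 2-fold higher with 5-Aza-CdR in total RNA, beside 17.0% of all genes. All 5-Aza-CdR changes in total RNA come from 1 library. Some genes listed as markers of other cell types (Dcn, Lyz2 and Ptprc) were higher in it than with DMSO, while other markers on those lists were not. Both are given with the markers below, and their part in these changes was not tested. Sox5, a SOX factor that modulates Sox10 activity, had 14 counts with DMSO, 43 with ADAR1i-124 and 646 with 5-Aza-CdR, log2 changes of 1.15 and 3.86. Lef1, the nuclear partner of β-catenin, had 21, 91 and 398 (1.71 and 2.79), and Sox9, which can take part in driving Mitf, had 329, 1095 and 4182 (1.66 and 2.61). These were the 3 regulators 2-fold higher with ADAR1i-124 (7.71% of all genes) and 4-fold higher with 5-Aza-CdR (5.98% of all genes), and Tfeb (1.41) and Tfap2a (1.33) were 2-fold higher with 5-Aza-CdR. No regulator was 2-fold lower in either. The precipitates of the same treatment did not show this for Sox5 or Lef1 in J2, where Sox5 was at 3.94 CPM with DMSO and 2.26 with 5-Aza-CdR, and Lef1 at 2.05 and 1.20. In J2, Sox9 was at 19.8 CPM with DMSO and 34.3 with 5-Aza-CdR. In Z22, where the median of all genes was higher, Sox5 was at 0.687 CPM with DMSO and 4.28 with 5-Aza-CdR, Lef1 at 1.26 and 1.35, and Sox9 at 33.9 and 24.98. Nor did the precipitates with ADAR1i-124 show the total RNA direction throughout. There Sox5 was at 0.695 CPM in J2 and 0.955 in Z22, Lef1 at 1.46 and 1.50, and Sox9 at 9.66 and 17.0, so that all 3 lay below the DMSO level in J2, and Sox9 also in Z22.

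In the other lists, the genes at least 2-fold changed with 5-Aza-CdR were 2 of 7 of the melanosome membrane, 2 of 22 of biogenesis and 1 of 5 of transport, each higher, 1 of 3 of signalling, lower, and 2 higher and 3 lower of 11 MITF targets outside pigmentation, beside 17.0% of all genes higher and 8.96% lower. With ADAR1i-124 they were 1 of 7, higher, 0 of 21, 0 of 5, 1 of 4, lower, and 1 of 10, higher, in the same order, beside 7.71% of all genes higher and 8.7% lower. Slc7a11, the cystine transporter that shifts pigment type, was higher by 1.75 with ADAR1i-124 and by 1.09 with 5-Aza-CdR, and Mfsd12, the importer of cysteine into melanosomes, by 1.81 with 5-Aza-CdR. Hps1 (1.41) and Rab32 (1.21), which act in melanosome biogenesis, and Mlph (1.80), the adaptor between Rab27a and Myo5a, were also 2-fold higher with 5-Aza-CdR. In signalling the Wnt receptor Fzd4 was the gene past 2-fold, at −1.66 with ADAR1i-124 and −1.04 with 5-Aza-CdR. Of the MITF targets outside pigmentation, Rragd was higher in both (1.96 and 1.78) and Cdkn1a, the cell cycle inhibitor p21, with 5-Aza-CdR (1.44), while Sirt1 (−1.36), Cdk2 (−1.14) and Bcl2 (−1.02) were lower with 5-Aza-CdR.

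These are values of total RNA, and for several of the same genes the precipitates went the other way. Rragd stood at 21.1 CPM in J2 with DMSO, 2.78 with ADAR1i-124 and 8.80 with 5-Aza-CdR, lower with both, and in Z22 at 1.49, 5.73 and 16.5, higher with both. Sirt1 was higher with 5-Aza-CdR in J2 (14.3 and 32.1 CPM) and in Z22 (5.16 and 34.5 CPM), and so was Cdk2 (20.9 and 32.6 CPM, and 7.45 and 48.0 CPM). Bcl2 was lower with 5-Aza-CdR in J2 (13.1 and 7.37 CPM) but not in Z22 (10.2 and 13.3 CPM). Fzd4 stood at 5.58, 3.82 and 2.86 CPM in J2 with DMSO, ADAR1i-124 and 5-Aza-CdR, and at 1.26, 3.21 and 3.55 CPM in Z22. Slc7a11 in J2 was lower with ADAR1i-124, at 122 CPM, than with DMSO, at 213 CPM. The list medians with 5-Aza-CdR in total RNA were 0.70 for regulators, 0.64 for the melanosome membrane, 0.21 for biogenesis, −0.18 for transport, −0.48 for signalling and −0.050 for the other MITF targets, beside 0.060 over all genes tested. In J2 the medians were −0.34 for regulators, −0.047 for the melanosome membrane, 0.23 for biogenesis, 0.030 for transport, 0.33 for signalling and 0.28 for the other MITF targets, beside 0.059, and 0 of 12 regulators were 2-fold higher. In Z22 the median of the regulators was 0.065 beside 1.06 over all genes, and the other 5 lists lay between 1.29 and 2.38.

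Mfsd12 and Rab32 shared with Mitf the separation by 5-Aza-CdR in all 3 RNA types, and did so under TMM factors as well. Mfsd12 stood at 12.5, 9.14 and 45.2 CPM in total RNA with DMSO, ADAR1i-124 and 5-Aza-CdR. In J2 it stood at 25.03 and 16.7 CPM without 5-Aza-CdR and at 31.1 and 39.9 with it, and in Z22 at 17.1 and 23.0 without and 50.2 and 60.5 with. Rab32 stood at 11.2, 19.3 and 26.6 CPM in total RNA, at 7.57 to 8.37 without and 21.9 to 22.7 with in J2, and at 1.95 to 6.89 without and 16.5 to 19.0 with in Z22. Counted over the lists, 9 of 22 biogenesis genes, 1 of 7 of the melanosome membrane, 1 of 5 of transport, 1 of 12 regulators, 0 of 3 of signalling and 1 of 10 other MITF targets (Cdkn1a) were separated this way, beside the 14.3% of all genes. Under TMM factors, where the share of all genes was 8.44%, the biogenesis count was 2 of 22 (Rab32 and Hps5), Mfsd12 and Cdkn1a stayed separated, and Mlph and the regulator Tfe3 did not. Myo5a and Bcl2 were then separated in the opposite direction. Tfe3, Hps5 and Myo5a are named here after their values were seen.

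**Figure D5:**
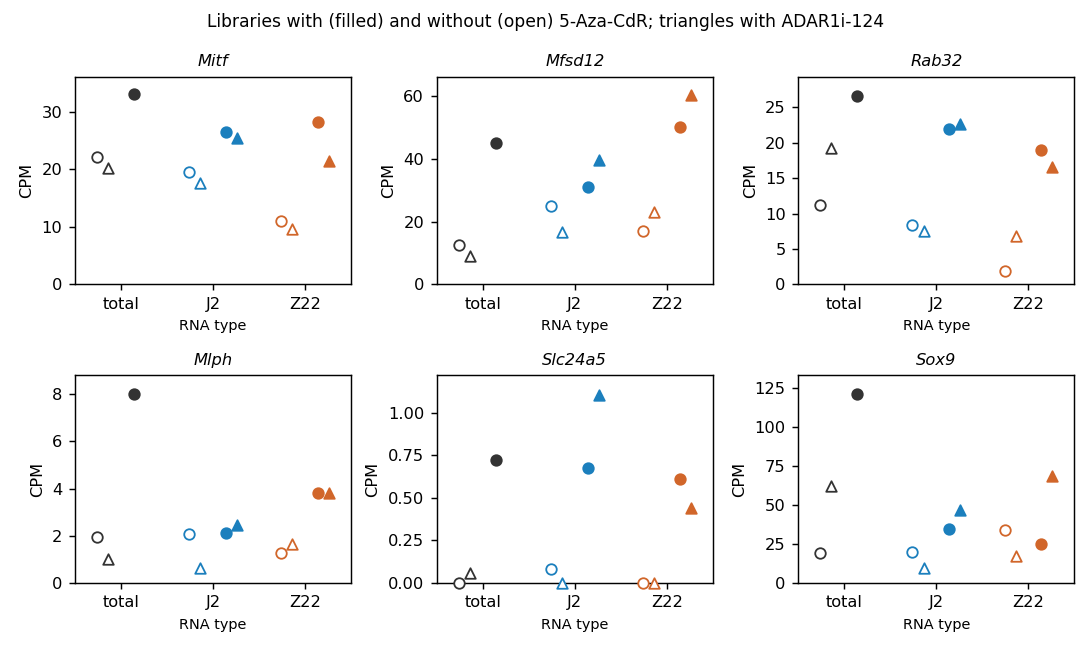
CPM (vertical axes, from 0) of Mitf and 5 other genes of the pigment pathway in total RNA, J2 and Z22, with filled symbols for libraries with 5-Aza-CdR and triangles for those with ADAR1i-124; each point is 1 library. Filled symbols lie above open ones in all 3 RNA types for each gene but Sox9, whose Z22 library with 5-Aza-CdR (24.98 CPM) lies below that with DMSO (33.9 CPM). The 5 genes were picked for display and do not stand for their lists. Among genes tested, 1 of 7 of the melanosome membrane, 9 of 22 of biogenesis, 1 of 5 of transport and 1 of 12 regulators were separated this way.

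The genes whose levels followed Mitf most closely over the 12 libraries, among the 8888 that averaged 10 CPM or more, were Ccbe1 (Pearson r = 0.93), Padi2 (0.92) and Tnfrsf1b (0.92). The points share RNA type, depth and treatment, and r is given as a description. Ccbe1 ran from 0.802 to 59.9 CPM and Padi2 from 3.21 to 41.9 CPM, both lowest in Z22 with DMSO and highest in total RNA with 5-Aza-CdR.

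The label of the cells was also set against markers of other cell types. The 8 keratinocyte markers summed to between 0.573 and 2.63 CPM over the 12 libraries, and the 8 Schwann cell markers to between 8.62 and 31.6 CPM. The 8 fibroblast markers, which include collagens that many cultured lines express, summed to between 249.9 and 1987 CPM, above the sum of the 10 pigmentation genes (9.82 to 33.7 CPM) in each library. The 8 leukocyte markers summed to between 7.43 and 80.7 CPM, most of it Cd68, and Cd3e, named after its values were seen, had no count in total RNA. The 6 endothelial markers summed to between 3.65 and 84.0 CPM, most of it Cdh5, and no more than 3 of them reached 1 CPM in a library.

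Some of these markers differed between the treatments. In total RNA Cd68 was higher by 1.18 on the log2 scale with ADAR1i-124 and by 3.11 with 5-Aza-CdR, and Cdh5 by 2.12 and 4.28. The total RNA library with 5-Aza-CdR also held 129 CPM of Dcn, a fibroblast proteoglycan, 2.43 CPM of Lyz2, a macrophage lysozyme, and 1.21 CPM of Ptprc, the pan-leukocyte receptor CD45, whereas no other library of the 12 held over 4.42 CPM of Dcn, 0.139 CPM of Lyz2 or 0.245 CPM of Ptprc. Not every leukocyte marker was higher with 5-Aza-CdR in total RNA, where Itgam was at 0.231 CPM against 0.235 with DMSO. The fibroblast list did not move as one. In total RNA with 5-Aza-CdR 4 of the 6 fibroblast markers tested were 4-fold higher, while Col3a1 (−0.50) and Pdgfrb (−0.12) were lower. The median log2 change of the fibroblast list with 5-Aza-CdR was 2.93 in total RNA but −1.22 in J2 and −2.12 in Z22, beside 0.060, 0.059 and 1.06 over all genes tested. With ADAR1i-124 in total RNA Col1a2 (2.44) and Pdgfra (2.17) were higher and Col3a1 (−3.21) and Pdgfrb (−2.45) lower, whereas in J2 all 4 were lower, Col1a2 at 22.8 CPM against 363 with DMSO and Pdgfra at 4.17 against 43.2. In Z22 with ADAR1i-124 Col1a2 was also lower, at 114 CPM against 1053. In J2, Cdh5 was at 8.21 CPM with DMSO and 60.2 with 5-Aza-CdR, Dcn at 1.97 and 2.93, and Cd68 at 59.6 and 17.8. With ADAR1i-124 in J2, Cd68 was at 6.46 CPM and Cdh5 at 3.13, both below DMSO and so opposite to total RNA. Cdh5 and Dcn were higher in the libraries with 5-Aza-CdR than in those without it in all 3 RNA types, as Mitf was, under library totals and the other 3 scalings. The part of these genes, or of cells that carry them, in the differences of Mitf and the other genes was not tested. Set against the label of a melanoma line, Mitf was present, with its transcript starts not told apart, and the pigment enzymes that define the melanocyte were at or near 0.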

How the data were processed

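Total RNA and J2, Z22 and IgG precipitates of mouse YUMM1.7 melanoma cells were sequenced as paired reads. The authors deposited 1 table of raw counts per gene, aligned with STAR in snakePipes to mm10; the counting tool and its strand setting were not given in the sources used here. Groups came from the sample labels, with 1 library per condition, and no column was left without a sample. Here, counts were divided by each library's total and multiplied by 1000000 (CPM), or also by the GENCODE union exon length (TPM). Changes were taken on log2(CPM + 0.5) for genes averaging 1 CPM or more, with a 4-fold line (2-fold as the alternative). Intervals are 95%, Poisson for a level and Wilson, on the share of counts without the pseudocount, for a ratio, and they and the limit of 3 counts for a 0 cover counting error only. Alternatives were edgeR 4.0.16 TMM and DESeq2 1.42.0 size factors, used as scaling factors and not as tests, library totals without the 20 highest genes, pseudocounts of 0.1 and 2 CPM, no minimum, and a minimum of 5 CPM. Other tools were R 4.3.3, Python 3.11.15, numpy 2.4.6, pandas 2.3.3, scipy 1.17.1 and matplotlib 3.10.9.

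On simulated counts for total RNA with 5-Aza-CdR against DMSO, over 14539 genes, 190 of 200 genes changed 8-fold were called and 0 unchanged genes, and 94.55% of 2000 intervals held the true ratio. The simulated counts held Poisson error only, with no variation between libraries. They check the calculation and do not measure how far replicates would differ. The genes named were all 10 members, up to 5 of each other list with the largest change in each total RNA comparison, the 3 genes most like Mitf and genes overlapping a member; others are marked as chosen after their values were seen. The members and lists were chosen with earlier results of these data known.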

Additional observations from a re-analysis of the deposited data

Results flagged for a closer look

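The total RNA library of the combination entered no comparison because its counts followed the opposite strand. It had counts for members that were at 0 or near it elsewhere. These counts are not read as levels of the members or as a change with the combination. The library held 1245894 counts, so that 3 counts corresponded to 2.41 CPM. There Pmel had 89 counts (71.4 CPM) against 2 in total RNA of DMSO-treated cells, Sox10 had 5 against 1 and Mlana had 4 against 0. All 3 lay above the limit of 3 counts that a 0 allows, which is why they are listed. In the same library Mitf had 1 count, and Dgka and Cdk2, the neighbours of Pmel on the other strand, had 0 and 6 counts, against 153 and 1265 in total RNA of DMSO-treated cells.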

How the results depend on the processing

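The median change of the 10 genes stayed at 0 in each of the 14 comparisons under the 5 alternative scalings and pseudocounts, which the genes at 0 fix, and none of the genes was 4-fold changed under any of them or under other minimum levels. At a 2-fold line 1 gene was called, Mitf in Z22 with 5-Aza-CdR against DMSO. Of 70 Mitf changes under the alternatives, 52 stayed within their counting interval and 18 left it, all in comparisons that use the Z22 or J2 library of DMSO-treated cells. The other 9 genes say little here, since in 89 of their 126 comparisons both libraries were at 0. The sign changed in 20 values, 7 of Mitf and the rest of Pmel, Oca2 and Sox10 within their intervals. Mitf in Z22 against IgG was −0.38 as reported, 0.23 with TMM factors, 0.40 with DESeq2 size factors and 0.079 with totals without the 20 highest genes. Mitf in Z22 against total RNA was −0.98 as reported and 0.22 with DESeq2 size factors, and in J2 against total RNA −0.18 as reported, 0.098 with TMM factors, 0.18 with DESeq2 size factors and 0.24 without the 20 highest genes. The log2 change of Mitf in Z22 with 5-Aza-CdR against DMSO fell from 1.32 to between 0.28 and 0.78, and that with the combination from 0.93 to between 0.10 and 0.54, while that with ADAR1i-124 went from −0.18 to −0.83 with TMM factors, −1.01 with DESeq2 size factors and −0.65 without the 20 highest genes. The cause was not tested. The number of RNA types separated by 5-Aza-CdR for Mitf, an alternative set chosen after seeing the data, stayed at 3 under the other 3 scalings, while the Z22 gap went from 1.95-fold to 1.18-fold with TMM factors and 1.07-fold with DESeq2 size factors.

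No paired analysis was run, because each condition had 1 library and 1 replicate number and pairs could be formed only across RNA type or inhibitor. Libraries that match across RNA type or inhibitor are set side by side as values, with no test, since total, J2 and Z22 RNA of a treatment are not known to be separate cultures. With 1 library a condition, no replicate was left out. Depth limits 9 of the 10 genes, since levels under 0.0868 to 0.367 CPM, depending on the library, are compatible with a count of 0.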

Other observations

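Among the genes of the melanosome membrane that fell short of 1 CPM in total RNA, Slc24a5, a cation exchanger needed for melanin, and Tmem163, a zinc transporter, had more counts in the libraries with 5-Aza-CdR. They were named after their values were seen. Slc24a5 had 25 counts in total RNA with 5-Aza-CdR and 0 with DMSO. Its level with 5-Aza-CdR was 4.10 times the limit of 3 counts in the DMSO library, without the counting error of the 25. The counting interval of its change had a low end of 1.68 on the log2 scale. In J2 Slc24a5 had 9 counts with 5-Aza-CdR and 13 with the combination, against 1 with DMSO and 0 with ADAR1i-124. In Z22 Slc24a5 had 5 and 4 counts, against 0 and 0, and the IgG library had 0. Tmem163 had 34 counts in total RNA with 5-Aza-CdR and 2 with DMSO, a ratio of CPM of 8.37 with a counting interval from 2.22 to 31.5. In J2 Tmem163 had 16 counts with 5-Aza-CdR and 16 with the combination, against 0 with DMSO and 1 with ADAR1i-124, and in Z22 9 and 5 against 0 and 2. Each of these is 1 library, and neither gene was part of the set described above.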
